A study of Mus musculus with 8 samples.

Results

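Motile cilia and ependymal genes were followed in SOX9 CUT&Tag of the mouse spinal cord, as a list of 40 genes taken by name, all of which were found among 21911 protein-coding genes. The list was chosen by known function and holds 6 regulators of multiciliated cells, 10 axonemal dynein heavy chains, 4 genes for intermediate chains, docking and assembly, 9 genes of the axonemal ruler, the nexin-dynein regulatory complex and related CFAP proteins, 7 genes of the radial spokes and central pair, and 4 genes for tektins and adenylate kinase. Ependymal cells line the central canal of the spinal cord and carry motile cilia, whose beating is driven by dynein arms that slide the microtubule doublets of the axoneme past each other. Radial spokes, the central pair and the nexin-dynein regulatory complex turn this sliding into a regular beat. Their genes are switched on together during multiciliated cell differentiation, by a cascade that runs through MCIDAS, MYB, FOXJ1 and the RFX factors.

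CUT&Tag tethers a transposase to an antibody, here against SOX9, so that DNA near the bound protein is cut out and sequenced. Nuclei were sorted from 5-mm cord segments of WT mice, for which the general animal methods of the study give C57BL/6 and an age of 8 to 12 weeks on entry, either uninjured or 1 day after a contusion injury (1 d.p.i.). The study's reporting summary names C57BL/6JR and gives a wider range of ages at use. Each condition had 1 male (M) and 1 female (F) sample, from different animals. A portion of the nuclei of each sample received the secondary antibody alone, which gave 8 libraries in 4 groups of 2. The groups are therefore SOX9 uninjured, SOX9 1 d.p.i., control uninjured and control 1 d.p.i., all of WT genotype. For sorting, the labels name the DNA stain 7AAD, while the methods refer back to a protocol that also used NEUN and SOX10 antibodies, so whether cell types were selected is not known here. In such bulk libraries, the number of ependymal nuclei and the SOX9 signal per nucleus cannot be told apart.

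Depth differed between libraries. Among uninjured cords, the M library with the SOX9 antibody had 1891276 fragments and the F library 7216730, and at 1 d.p.i. the numbers were 2529356 and 2385009. The secondary-only controls had 22752 (M) and 46846 (F) in the uninjured and 52950 and 10906 in the injured group, so the SOX9 library with the fewest fragments was still 35.7 times deeper than the deepest control. Values of a pair are given for M before F. Of 233 control fragments that stood alone within the 40 gene bodies, 203 (87.1%) had both start and end found in the same SOX9 library. So did 86.6% of 117251 such fragments over the genome. Start and end were looked up separately, so they can belong to different SOX9 fragments. With so many matches, the controls are not an independent background. All levels given here are coverage per base divided by the library's mean coverage over autosomes, so that 1 is the genome average. The TSS window spans 1 kb to each side of a gene's 5′ end, and the gene body window includes 5 kb of flank at each end.

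Averaged over the ciliary genes, coverage peaked near the start sites. Their median level was close to that of other genes, and their mean level was lower in each SOX9 library, at 3.33 (M) and 6.38 (F) in uninjured cords and 4.93 and 4.33 at 1 d.p.i., against 4.47, 8.04, 6.15 and 5.16. The 40 genes had a median TSS level of 2.7 (M) and 3.92 (F) in uninjured cords and 3.21 and 2.7 at 1 d.p.i., and that of the other protein-coding genes was 2.59, 4.27, 3.32 and 3.01 in the same libraries. The mean over M and F was 3.31 ± 0.861 (SD, n = 2) in uninjured cords and 2.96 ± 0.359 (SD, n = 2) at 1 d.p.i. for the 40 genes, a difference smaller than the spread between the uninjured libraries. In all 4 SOX9 libraries, 14 of the 40 genes reached at least 3 times the library mean, as did 8387 of 21911 protein-coding genes (38.3%). The share among the ciliary genes (35.0%) was thus near that of all genes. Ccno lay just inside this rule, with a lowest value of 3.45, and Dnah2 just outside, at 2.94. By role, the 14 genes were 4 of 6 regulators, 4 of 4 genes for intermediate chains, docking and assembly, 4 of 9 genes of the ruler, regulatory complex and CFAP group, 1 of 10 heavy chains, 1 of 7 spoke and central pair genes and 0 of 4 tektins and adenylate kinase.

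**Figure D1:**
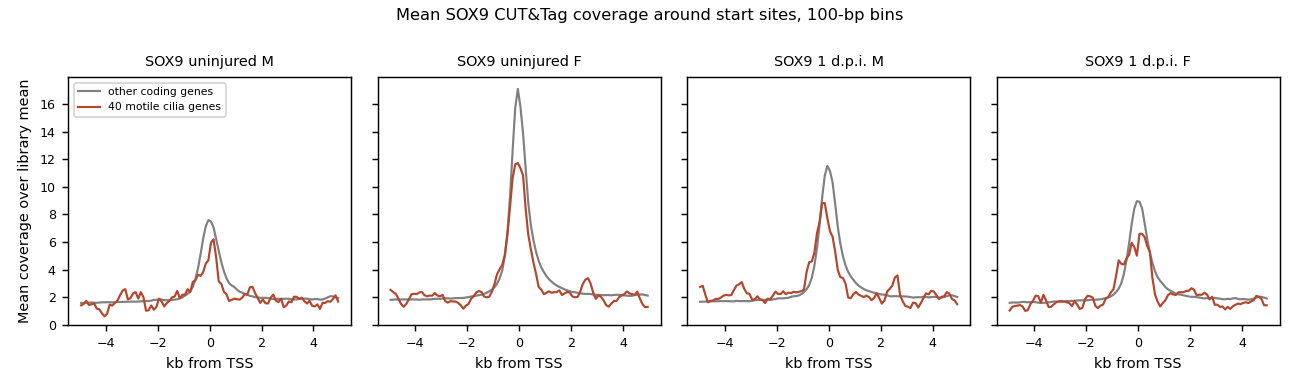
Mean SOX9 CUT&Tag coverage over the library mean (y axis) in 100-bp bins from 5 kb upstream to 5 kb downstream of the TSS (x axis, kb), for the 40 ciliary genes and for all other protein-coding genes, with 1 panel per SOX9 library. The highest bin of the 40 genes was at 6.20, 11.7, 8.83 and 6.60 in the panels from left to right, and that of the other genes at 7.59, 17.1, 11.5 and 8.96.

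Among the regulators, the RFX factors and Foxj1 had the highest start sites. Rfx3, whose product binds promoters of ciliary genes (chr19:27761721-28011166, minus strand), had TSS levels of 12.6 (M) and 25.7 (F) in uninjured cords and 22.1 and 22.2 at 1 d.p.i., above 95.7% of protein-coding genes. Its relative Rfx2 (chr17:56775897-56831013, minus strand) had 6.92 and 24.0 in uninjured cords and 16.4 and 14.4 at 1 d.p.i. Foxj1, the forkhead factor that drives the motile cilia program (chr11:116330704-116335399, minus strand), had 8.50 and 19.6 in uninjured cords and 15.3 and 10.2 at 1 d.p.i. In each of these genes the uninjured M library was lowest, the uninjured F library highest, and the libraries at 1 d.p.i. lay between them. Coverage of Rfx3 was concentrated at its start, where the 1-kb tile chr19:28011001-28012000 averaged 32.4 over the 4 SOX9 libraries, while 5 of 261 tiles of the gene and its flanks averaged 3 or more. In Foxj1, 16 of 16 tiles did so, and its highest tile, at 21.6, lay within the gene.

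The other regulators were lower. Ccno, a cyclin-like gene needed for amplification of basal bodies, had TSS levels of 4.40 (M) and 5.50 (F) in uninjured cords and 4.55 and 3.45 at 1 d.p.i. Mcidas, an early inducer of multiciliated fate whose start lies 6043 bp from that of Ccno, had 0.703 and 2.53 in uninjured cords and 2.82 and 1.43 at 1 d.p.i. Myb, a transcription factor that acts early in multiciliogenesis, had 0.945 and 1.45 in uninjured cords and 0.623 and 1.49 at 1 d.p.i. These are thin data, since the Mcidas window held 1, 14, 6 and 3 fragments and the Myb window 1, 8, 2 and 2 in the same order of libraries. The value of 3 fragments in a TSS window was 2.02 in the uninjured M library, 0.522 in the uninjured F library, 1.5 in the M library and 1.59 in the F library at 1 d.p.i., which is the level that an empty window allows for counting error alone.

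Dynein heavy chains, the large motor subunits of the inner and outer arms, had a median TSS level of 2.19, from 0.129 to 5.61 as means of the 4 SOX9 libraries. Dnah9, an outer arm motor, was highest, with 5.46 (M) and 8.71 (F) in uninjured cords and 3.56 and 4.69 at 1 d.p.i. Dnah12, an inner arm motor, was lowest, at 0 and 0.213 in uninjured cords and 0 and 0.304 at 1 d.p.i., which rests on 0, 2, 0 and 1 fragments. For Dnah7a, another inner arm motor, the uninjured M library had 0 fragments, against 4.45 in the uninjured F library and 4.21 and 4.14 at 1 d.p.i. This gene has near-identical copies, so that its reads can be split among them. For Dnah11, an outer arm motor, levels were 1.27 and 1.26 in uninjured cords and 0 and 0.382 at 1 d.p.i., from 1, 8, 0 and 1 fragments.

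Intermediate chains, docking and assembly genes stood higher, with a median TSS level of 8.92. Ccdc114, which docks outer arms to the doublets (chr7:45924072-45948963, plus strand), had 10.5 (M) and 16.9 (F) in uninjured cords and 19.8 and 17.6 at 1 d.p.i., so that each injured library was above each uninjured one. Zmynd10, a cytoplasmic factor for dynein arm assembly (chr9:107547298-107551319, plus strand), had 8.60 and 9.75 in uninjured cords and 4.16 and 6.05 at 1 d.p.i., with each injured library below each uninjured one. Dnai2, an outer arm intermediate chain, was the lowest of the group and the most even, with 6.90 and 6.44 in uninjured cords and 6.81 and 5.45 at 1 d.p.i. Dnai1, its partner chain, had 5.56 and 19.1 in uninjured cords and 9.74 and 8.39 at 1 d.p.i. The start of Fam219a lies 237 bp from that of Dnai1, and the windows of such neighbouring starts share their coverage.

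**Figure D2:**
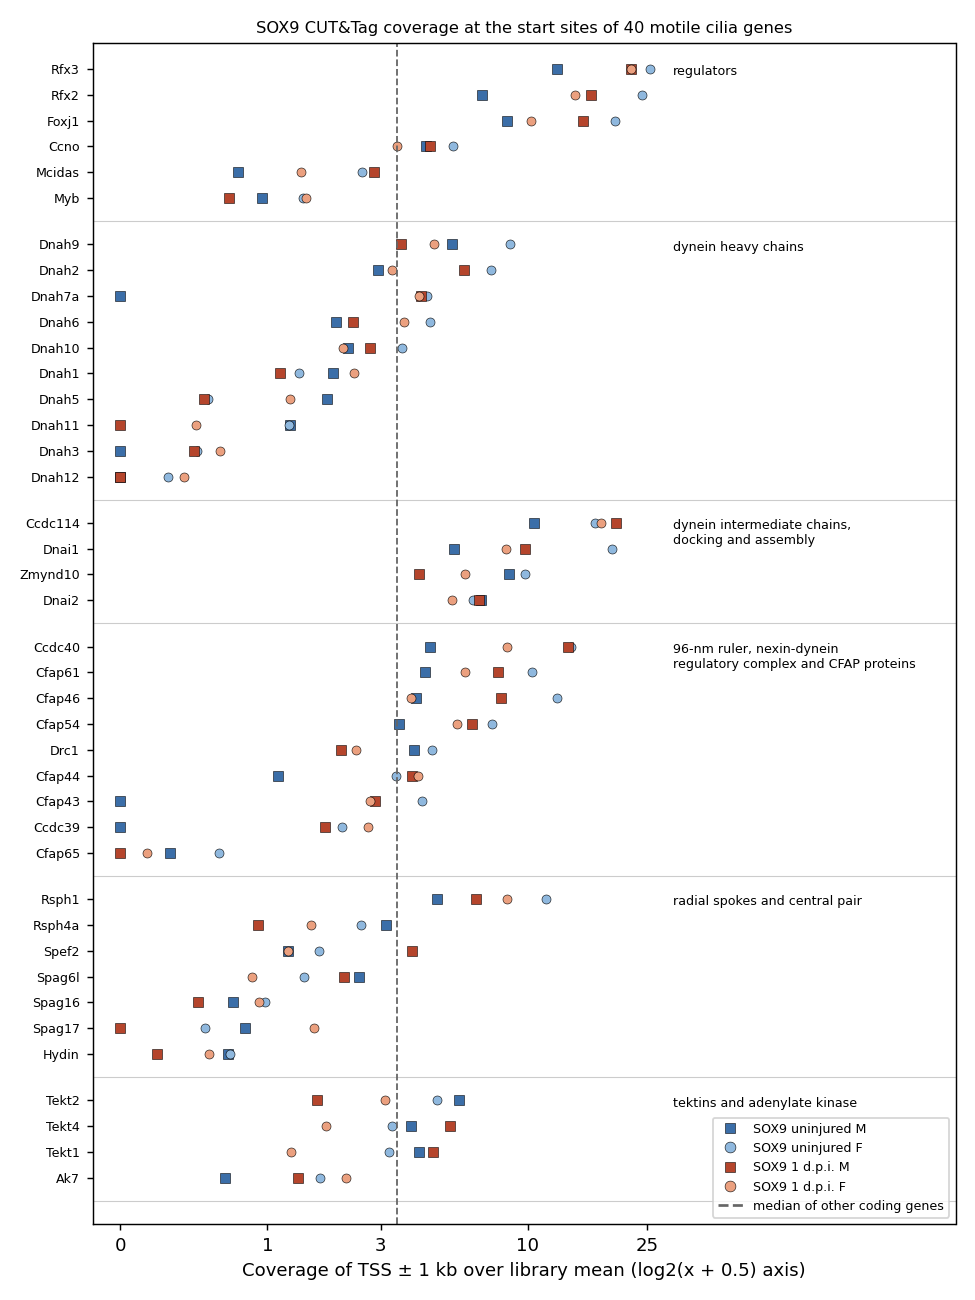
TSS coverage over the library mean of each of the 40 genes in the 4 SOX9 libraries (x axis, on a log2 scale after adding 0.5; squares M, circles F; blue uninjured, red 1 d.p.i.), grouped by role and ordered by the mean. The dashed line is the median of other protein-coding genes, 3.44 as the mean of the 4 libraries, and Rfx3 reaches 25.7 in the uninjured F library.

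The genes of the axonemal ruler, the nexin-dynein regulatory complex and the CFAP group had a median TSS level of 3.28. Ccdc40, which with Ccdc39 forms the ruler that sets the spacing of arms and spokes, was highest, with 4.54 (M) and 13.9 (F) in uninjured cords and 13.7 and 8.49 at 1 d.p.i. Its start lies 73 bp from that of Tbc1d16. Ccdc39 had 0 and 2.12 in uninjured cords and 1.81 and 2.69 at 1 d.p.i., below its partner in each library. Cfap43, the partner of Cfap44 in tethering inner arms, had 0 and 4.24 in uninjured cords and 2.86 and 2.72 at 1 d.p.i., with the start of Itprip 12 bp away. Cfap61, a protein at the base of the radial spokes, had 4.35 and 10.3 in uninjured cords and 7.87 and 6.07 at 1 d.p.i., with that of Crnkl1 230 bp away. In both genes the uninjured M library was lowest and the uninjured F library highest. Of the 4 ciliary genes with a neighbouring start in the window, 3 reached 3 times the library mean in all 4 SOX9 libraries, against 11 of the 36 without one. Over all protein-coding genes, with or without a neighbouring start, the share was 38.3%. Cfap65, a central-pair-associated protein, was lowest in the group, at 0.226 and 0.546 in uninjured cords and 0 and 0.111 at 1 d.p.i.

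Drc1 encodes a subunit of the nexin-dynein regulatory complex. Its TSS levels were 3.97 (M) and 4.64 (F) in uninjured cords and 2.1 and 2.40 at 1 d.p.i. For Cfap44, an axonemal tether protein, they were 1.12 and 3.41 in uninjured cords and 3.93 and 4.10 at 1 d.p.i. The libraries of the 2 conditions thus did not overlap in either gene, in opposite directions, and the lowest values rest on 2 or 3 fragments each.

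Radial spoke and central pair genes had a median TSS level of 1.73. Rsph1, a spoke head protein, was alone in this group in reaching 3 times the mean in all 4 SOX9 libraries, with 4.81 (M) and 11.5 (F) in uninjured cords and 6.65 and 8.50 at 1 d.p.i. Hydin, a central pair projection protein, was lowest, with 0.616 and 0.634 in uninjured cords and 0.158 and 0.470 at 1 d.p.i. For Rsph4a, another spoke head protein, levels were 3.14 and 2.52 in uninjured cords and 0.898 and 1.58 at 1 d.p.i., from 5, 13, 2 and 3 fragments. Hydin and Rsph4a were both lower in each library at 1 d.p.i. than in either uninjured library, at depths where a few fragments set the value.

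Tektins, filament proteins of the doublet microtubules, and the adenylate kinase Ak7 had a median TSS level of 3.46. Tekt2 was highest, with 5.78 (M) and 4.80 (F) in uninjured cords and 1.68 and 3.11 at 1 d.p.i. Ak7, which acts in nucleotide balance in cilia, was lowest, with 0.595 and 1.73 in uninjured cords and 1.38 and 2.2 at 1 d.p.i.

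In the secondary-only controls, the 40 TSS windows held 10 fragments in all, against 2440 in the SOX9 libraries, and 31 of the 40 had none. The mean level over the 40 windows was 2.52 (M, 95% Poisson interval 0.305 to 9.09) and 4.15 (F, 1.35 to 9.68) in uninjured controls, and 2.17 (M, 0.263 to 7.84) and 4.01 (F, 0.102 to 22.4) in controls at 1 d.p.i. With the SOX9 antibody the level reached 3.33 (M, 2.91 to 3.79) and 6.38 (F, 6.06 to 6.71) in uninjured cords and 4.93 (M, 4.46 to 5.43) and 4.33 (F, 3.87 to 4.83) at 1 d.p.i. Every interval of the controls overlaps that of the SOX9 library from the same sample. Since most lone control fragments had a start and an end found in a SOX9 library, these controls cannot show whether the start sites lie above background. Over the 4 libraries of each kind the mean was 4.74 ± 1.27 (SD, n = 4) with the SOX9 antibody and 3.21 ± 1.01 (SD, n = 4) without it, a ratio of 1.48, and over the gene bodies the ratio was 1.02. For other protein-coding genes the same ratios were 0.940 at the TSS, from means of 5.95 and 6.33, and 0.976 for gene bodies. The intervals cover counting error only.

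The study's comparison of injured with uninjured cords was then made for each gene with limma on the log2 of coverage plus 0.5, over all protein-coding genes and the 4 SOX9 libraries. At the TSS, 0 of the 40 ciliary genes passed an adjusted p of 0.05, as did 0 of 21911 genes (0%). On simulated data of these depths the fit called none of the changed genes at the TSS, so these counts do not show that levels were equal. At an unadjusted p under 0.05, 0 of the 40 were higher (312 of all genes, 1.42%) and 1, Dnah11, was lower (348 of all genes, 1.59%). After centring on the median of all genes, 1 was higher (414 of all genes) and 0 were lower (319). None were lower with a pseudocount of 0.1 (415) or with M of 1 condition paired with F of the other as a block (308). With 500 bp to each side 2 were lower (442), and with all 8 libraries 5 were (1048). Each injured library was above each uninjured one in 2 of the 40 genes, Ccdc114 and Cfap44, against 8.43% of all genes, and below in 8, against 14.1%. The 8 were the motors Dnah9 and Dnah11, the assembly factor Zmynd10, Drc1, Cfap65, Rsph4a, Hydin and Tekt2. With 2 kb to each side of the TSS, the log2 difference turned from -0.66 to 0.36 in Cfap65 and from -0.49 to 0.05 in Hydin. An exact permutation test of 2 against 2 libraries cannot give a p below 0.333. The median log2 difference of the 40 genes was -0.08, against -0.05 over all genes, with a median standard error of 0.54 for a single gene.

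The direction of that median depended on single libraries. It was 0.39 without the uninjured F library and 0.08 without the F library at 1 d.p.i., and -0.39 without the uninjured M library and -0.06 without the M library at 1 d.p.i. Over all protein-coding genes it was 0.23, 0.00, -0.38 and -0.12 in the same order. At an unadjusted p under 0.05, 7 of the 40 were higher and 0 lower without the uninjured F library (1491 and 805 of all genes), and 0 were higher and 2 lower without the uninjured M library (190 and 1636 of all genes), and 0 passed an adjusted p of 0.05 in any of these fits.

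Dnah11 had a log2 difference of -1.41 (SE 0.41, limma adjusted p = 1) at the TSS, below in M and in F, from the few fragments given above. For Zmynd10 the difference was -0.81 (SE 0.34, limma adjusted p = 1), for Tekt2 -1.04 (SE 0.49), for Rsph4a -0.96 (SE 0.56) and for Drc1 -0.80 (SE 0.44), and these 5 genes were lower in both sexes. Ccdc114 had a difference of 0.47 (SE 0.38, limma adjusted p = 1), which was -0.19 with the start of its principal transcript. The 5 largest positive differences ran from 0.53 in Ak7 to 1.57 in Dnah7a, and in 3 of these genes, Dnah7a, Ccdc39 and Cfap43, the uninjured M library had 0 fragments. Without that library the difference was -0.08 in Dnah7a, 0.05 in Ccdc39 and -0.53 in Cfap43, and it went from 0.84 to 0.21 in Cfap44 and from 0.53 to 0.02 in Ak7. With the start of its principal transcript, Cfap43 had -1.19, and its RefSeq start lies 81926 bp from the one used here. None of the 6 regulators had libraries of the 2 conditions that did not overlap at the TSS, and their log2 differences ran from -0.28 in Ccno to 0.41 in Mcidas, which was -0.26 without the uninjured M library.

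**Figure D3:**
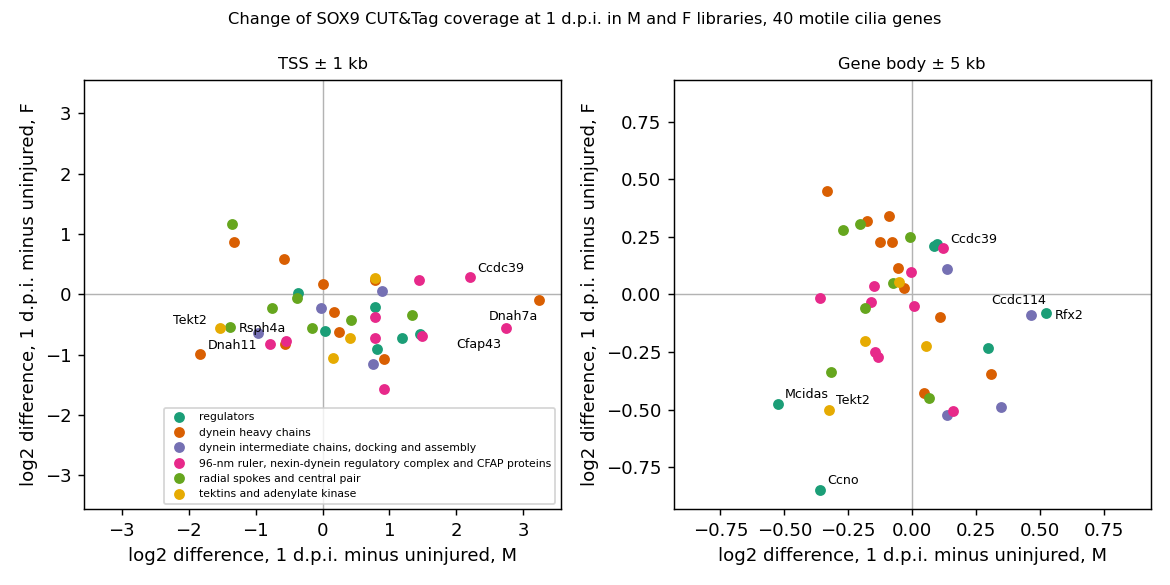
Log2 difference in coverage plus 0.5 between 1 d.p.i. and uninjured SOX9 libraries, in M (x axis) and in F (y axis), for the TSS window (left) and the gene body (right), with 1 point per gene and colours for roles. At the TSS, 19 of the 40 genes were higher in M and lower in F (46.7% of other genes) and 4 the reverse (9.62%), and for gene bodies 12 (37.7%) and 14 (23.8%) were.

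For gene bodies, 0 of the 40 genes passed an adjusted p of 0.05 with limma, as did 0 of 21911 (0%). At an unadjusted p under 0.05, 0 were higher (465 of all genes, 2.12%) and 2 lower (278 of all genes, 1.27%). Each injured library lay above each uninjured one in 3 of the 40, Rfx3, Myb and Ccdc39 (12.9% of all genes), and below in 7 (13.6% of all genes). The median log2 difference was -0.01, against -0.02 over all genes, with a median standard error of 0.23. It was 0.00 after centring each library on the median of all genes.

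The 2 genes at an unadjusted p under 0.05 were the neighbours Ccno (chr13:112987802-112990777) and Mcidas (chr13:112993845-113000394), whose windows share sequence and are not separate measurements. Ccno had gene body levels of 2.42 (M) and 1.97 (F) in uninjured cords and 1.77 and 0.871 at 1 d.p.i., a log2 difference of -0.60 (SE 0.24, limma adjusted p = 1.00). Mcidas had 2.16 and 1.34 in uninjured cords and 1.35 and 0.825 at 1 d.p.i., a difference of -0.50 (SE 0.22, limma adjusted p = 1.00). The libraries of the 2 conditions did not overlap in Ccno and overlapped in Mcidas. With limma, 0 of the 40 were lower at an unadjusted p under 0.05 for gene bodies with no flanks (388 of 21911 genes). The same held after thinning to the smallest SOX9 library (287 of all genes), without the mean-variance trend (203) and with all 8 libraries (111). There were 2 without the TSS window (371 of all genes), with a pseudocount of 2 (290) and with sex as a replicate block (221). Among genes with a mean of at least 1, 2 of 21 ciliary genes were lower (281 of 13831 genes). The count was 1 after centring (297 of all genes) and with a pseudocount of 0.1 (258). It was also 1 with M of 1 condition paired with F of the other as a block (464). Leaving out the F library at 1 d.p.i. gave -0.24 in Ccno and -0.26 in Mcidas, and leaving out the uninjured M library -0.48 and -0.23. Without the M library at 1 d.p.i. the differences were -0.97 and -0.74, and without the uninjured F library -0.72 and -0.77. At the TSS the 2 genes had differences of -0.28 and 0.41, which do not share a sign.

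Among the further genes, Rfx2 had the largest positive gene body difference, 0.22 (SE 0.24), from levels of 2.23 (M) and 2.74 (F) in uninjured cords and 3.42 and 2.56 at 1 d.p.i. Rfx3 had 1.00 and 0.865 in uninjured cords and 1.09 and 1.08 at 1 d.p.i., and Myb 0.550 and 0.611 against 0.622 and 0.794. In both, each injured library was above each uninjured one. Tekt2 had 4.81 and 5.27 in uninjured cords and 3.74 and 3.58 at 1 d.p.i., a difference of -0.41 (SE 0.28, limma adjusted p = 1.00), and Rsph4a had 0.655 and 0.836 against 0.426 and 0.557, a difference of -0.33 (SE 0.19, limma adjusted p = 1.00). For these 2 genes the TSS and the gene body differed in the same direction, from windows that overlap.

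At the median, gene body levels of the ciliary genes were near the genome average and below those of other protein-coding genes in each SOX9 library. Their median lay at 1.02 (M) and 0.990 (F) in uninjured cords and 1.07 and 0.848 at 1 d.p.i., against 1.37, 1.52, 1.44 and 1.43 for the other protein-coding genes. These genes are long, with a median length of 79669 bp against 17396 bp, and each was therefore set against other genes that were at most 20% shorter or 25% longer. The median ciliary gene lay above 39.3% of such genes (SD over the 4 SOX9 libraries 4.66 percentage points), with 15 genes above the middle of their length class and 25 below it.

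Zmynd10 and Foxj1 were at the top of this scale and several heavy chains at its foot. Zmynd10 had gene body levels of 9.16 (M) and 13.6 (F) in uninjured cords and 10.1 and 9.31 at 1 d.p.i., above 97.7% of 1590 genes of like length. Its highest tile, at 39.0, lay in the flank, its middle 2945 bp from the start of Rassf1. Foxj1 had 8.39 and 11.0 in uninjured cords and 10.4 and 9.29 at 1 d.p.i., above 96.7% of 1911 genes. At the other end, Dnah11 had 0.384 and 0.233 in uninjured cords and 0.281 and 0.415 at 1 d.p.i., above 4.21% of 356 genes, and Spag17, a central pair protein, had 0.426 and 0.217 against 0.305 and 0.386, above 3.87% of 439 genes. The highest 1-kb tile lay at the TSS in 16 of the 40 genes, within the gene in 15 and in a flank in 9, and in 5 (Ak7, Ccdc40, Cfap43, Dnai1 and Tekt2) it was within 1 kb of the start of another protein-coding gene.

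**Figure D4:**
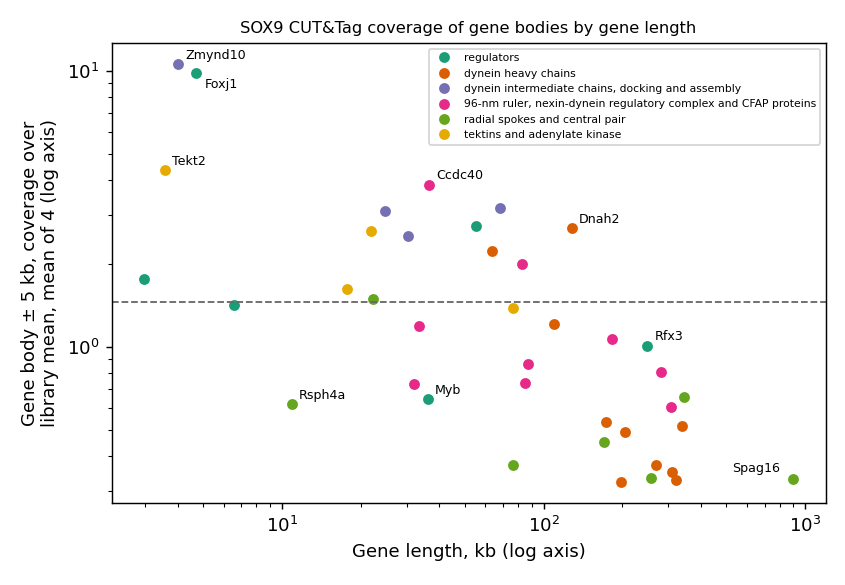
Gene body coverage over the library mean (y axis, log scale, mean of the 4 SOX9 libraries) against gene length (x axis, kb, log scale), with 1 point per ciliary gene and colours for roles. The dashed line is the median of other protein-coding genes, 1.46, and the long dynein heavy chains lie mostly below it.

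Across the 40 genes, coverage followed base composition and length. Spearman's rho of gene body coverage with the GC share of the window was 0.87 and with gene length -0.71 (n = 40), and over the 21871 other genes 0.77 and -0.02. At the TSS, rho with the GC share was 0.66 for the 40 genes and 0.70 for the others. These are descriptions across genes that share the same libraries, and genes are not independent replicates. The part of base composition in the levels was not tested.

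Promoter sequences of 300 bases, 250 before and 50 after the start, were matched in RefSeq (GRCm38.p6) for 34 of the 40 genes (all but Foxj1, Rsph1, Cfap54, Dnah3, Rsph4a and Cfap65), 29 of them with a start within 100 bp of the annotated one. RFX letters (GTTGCC or GTTACC, an arm of the palindromic RFX motif) on either strand were present in 21 of the 34 (61.8%), against 6113 of 32851 promoters in the table (18.6%). SOX letters (ACAATG or ACAAAG) were present in 7 (20.6%, against 28.6%), AP-1 letters (TGAGTCA or TGACTCA) in 3, Dnah2, Dnah5 and Drc1 (8.82%, against 5.20%), and FOX letters (TGTTTAC or TGTTTGT) in 3, Ak7, Cfap43 and Myb (8.82%, against 9.95%). Among the 29 promoters with a near start, a selection added after the data were seen, RFX letters were in 19 (65.5%) and SOX letters in 4 (13.8%). Pairs of RFX arms 1 to 3 bases apart were searched after the data were seen, in 1 spelling of each order. Both arms had to match that spelling, so pairs with an arm that departs from it were not counted. GTTNCC followed by GGNAAC was found in 0 of the 34 and in 255 of all promoters (0.776%), and GGNAAC followed by GTTNCC in 2, Rfx2 and Spag16 (5.88%), and in 37 of all promoters (0.113%). Median TSS levels of genes with and without SOX letters were 1.65 and 3.28 for the 34, and 1.70 and 4.42 for other protein-coding genes. For RFX letters they were 3.28 and 2.45, and 3.84 and 3.69. For AP-1 letters they were 3.28 and 3.14, and 1.45 and 3.84, and for FOX letters 1.47 and 3.28, and 1.52 and 3.95. These differences across genes were not tested. A match is a description of letters and not a bound site.

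The CpG ratio, the CpG content over that expected from base composition, had a median of 0.580 in the 34 promoters and 0.602 in those of 16487 other protein-coding genes. Split at 0.6, a value set after the data were seen, 16 of the 34 (47.1%) were CpG-rich with a median TSS level of 4.16 and 18 CpG-poor with 2.91. For the other protein-coding genes 50.2% were CpG-rich, and the median levels were 7.17 and 1.06.

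The 200 bases upstream of the start are shown for the 3 highest and the 3 lowest TSS levels among 9 genes whose stretch holds no annotated exon, to set the sequence beside the level. Capitals mark letters of the 4 motifs above, and each is written 5′ to 3′ on the strand of the gene (GRCm38.p6, RefSeq). Rfx3 (chr19:28011167-28011366, minus strand) had a mean TSS level of 20.6, Ccno (chr13:112987602-112987801, plus strand) 4.48 and Tekt2 (chr4:126325689-126325888, minus strand) 3.84. Myb (chr10:21160985-21161184, minus strand) had 1.13, Spag16, a central pair protein (chr1:69826770-69826969, plus strand), 0.735, and Dnah11 (chr12:118199044-118199243, minus strand) 0.727.
Rfx3: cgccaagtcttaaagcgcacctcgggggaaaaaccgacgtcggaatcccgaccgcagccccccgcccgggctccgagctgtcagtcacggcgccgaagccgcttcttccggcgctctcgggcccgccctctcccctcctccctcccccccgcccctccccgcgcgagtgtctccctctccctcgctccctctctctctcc
Ccno: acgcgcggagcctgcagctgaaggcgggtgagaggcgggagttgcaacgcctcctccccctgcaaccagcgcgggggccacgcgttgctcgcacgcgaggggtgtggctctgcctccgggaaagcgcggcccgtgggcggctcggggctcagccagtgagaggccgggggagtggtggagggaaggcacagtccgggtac
Tekt2: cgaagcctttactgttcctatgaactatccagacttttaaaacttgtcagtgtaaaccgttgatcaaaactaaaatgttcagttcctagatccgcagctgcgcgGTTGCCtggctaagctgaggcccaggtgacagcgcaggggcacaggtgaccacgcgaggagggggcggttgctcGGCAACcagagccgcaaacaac
Myb: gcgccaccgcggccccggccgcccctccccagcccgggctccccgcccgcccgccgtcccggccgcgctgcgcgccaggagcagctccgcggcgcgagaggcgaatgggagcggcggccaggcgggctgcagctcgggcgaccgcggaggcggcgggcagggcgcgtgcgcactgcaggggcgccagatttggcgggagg
Spag16: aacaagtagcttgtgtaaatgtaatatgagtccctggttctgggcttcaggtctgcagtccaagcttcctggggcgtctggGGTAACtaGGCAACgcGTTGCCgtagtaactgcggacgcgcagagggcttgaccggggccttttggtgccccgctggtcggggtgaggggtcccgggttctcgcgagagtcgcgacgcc
Dnah11: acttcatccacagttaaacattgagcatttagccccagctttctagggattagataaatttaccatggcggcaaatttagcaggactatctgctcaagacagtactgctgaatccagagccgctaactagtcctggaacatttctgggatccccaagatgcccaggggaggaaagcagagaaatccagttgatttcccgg
Tekt2 holds RFX letters at 2 places in this stretch and Spag16 at 3, at TSS levels of 3.84 and 0.735, while the stretch of Rfx3, the highest, holds 0 matches and 24 CpG dinucleotides. Myb, with 34 CpG dinucleotides, was among the lowest. In the 300-base promoters counted above, RFX letters were also present in Rfx3 and Ccno, outside the stretch shown, and absent in Myb and Dnah11.

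Other genes of motile cilia and ependymal cells were read in the same way. Of 56 further motile cilia genes, 11 reached 3 times the library mean in all 4 SOX9 libraries (38.3% of all genes), with a median TSS level of 2.99. Of 10 further regulators of multiciliogenesis, 3 did, with a median level of 2.66, and of 12 ependymal markers outside the axoneme, 2 did, with 2.31. The list of 12 includes Vim, Nes and Sox2. The paper describes Sox2 as shared by macroglia and Vim as raised in astrocytes after injury, so this list is not specific to ependymal cells. The median log2 difference at 1 d.p.i. in these 3 lists was -0.10, -0.39 and 0.01 at the TSS and -0.01, -0.04 and 0.19 for gene bodies. For gene bodies, each injured library was above each uninjured one in 7, 1 and 5 genes (12.9% of all genes) and below in 11, 2 and 1 (13.6%). With limma, 0 genes in each of these lists passed an adjusted p of 0.05 at the TSS or gene body, and at an unadjusted p under 0.05 the gene body was higher in 2 further motile cilia genes and 1 ependymal marker (2.12% of all genes) and lower in 1 further regulator (1.27%), and the TSS was higher in 1 ependymal marker (1.42%).

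At 3 times the library mean in all 4 SOX9 libraries were 8 of 10 oligodendrocyte markers, 5 of 10 neuron markers, 4 of 10 astrocyte markers, 1 of 10 microglia markers and 1 of 10 endothelial markers, against 38.3% of all genes, with median TSS levels of 9.95, 3.95, 2.81, 2.02 and 1.46. The ciliary genes had a median of 3.17, close to that of all protein-coding genes (3.43). This was below the oligodendrocyte markers and between the neuron and the astrocyte markers. The median gene body difference at 1 d.p.i. was -0.14, -0.18, 0.19, 0.20 and 0.05 in the same order of lists. Each injured library was above each uninjured one in 0, 0, 6, 5 and 2 of the 10 gene bodies (12.9% of all genes) and below in 2, 6, 0, 0 and 0 (13.6%), and 0 markers in each list passed an adjusted p of 0.05 with limma in either window. At an unadjusted p under 0.05, the gene body was higher in 2 microglia markers and 1 endothelial marker (2.12% of all genes), and the TSS lower in 1 microglia marker (1.59%). The part of cell composition in the levels of the ciliary genes was not tested.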

How the data were processed

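Demultiplexing (deML), mapping to mm10 and removal of duplicates were done by the authors, and the submitters' processing notes name Bowtie2 2.5.4, Picard 3.4.0 and SEACR 1.3. The deposited table is named for fragments but was read as coverage, since 0 of its 20283253 stretches overlap another of the same library and 0 of 14068322 abutting pairs hold equal values. This coverage is in whole numbers without scaling, from a step not given in the sources used here, and was divided here by each library's autosomal mean. Fragments were rebuilt from rises and falls of the coverage. Poisson intervals (95%) cover counting error only. Genes are from GENCODE M21. The 4 SOX9 libraries were tested with limma 3.58.1 (R 4.3.3, mean-variance trend, Benjamini-Hochberg over 21911 genes, no filter). On simulated data with large changes, this fit called most changed genes for gene bodies and none at the TSS. The simulation used a single fixed dispersion, not taken from these libraries, and changed only genes with a mean of at least 1. It therefore does not show what the fit can call in these data. Summaries used Python 3.11.15, numpy 2.4.6, scipy 1.17.1 and pandas 2.3.3. The log2(coverage + 0.5) scale understates differences of low genes. Named were the 6 regulators, the highest and lowest TSS level of each other role, the 5 largest differences in each direction and window, and genes whose TSS window holds another start. Other genes shown were chosen after their values were seen. The members and lists were chosen with earlier results of these data known. Alternatives covered windows, pseudocounts, filters, scaling, blocks, depth and each library left out.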

Additional observations from a re-analysis of the deposited data

Results flagged for a closer look

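The M and F libraries differed in opposite directions at the start sites of the 40 ciliary genes. The median log2 difference between 1 d.p.i. and uninjured SOX9 libraries was 0.33 in M and -0.54 in F. Over the other protein-coding genes it was 0.29 in M and -0.43 in F. This contrast of M with F was not tested, since each sex has 1 library per condition, and depth differed along with it, since the uninjured F library was the deepest and the uninjured M library the shallowest with the SOX9 antibody.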

How the results depend on the processing

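Of 141 comparisons with an alternative, 121 stayed within the spread or count limit of the main value. For the median differences that spread was the SD of the M and F values, which was wide at the TSS (0.617) and narrow for gene bodies (0.0092), so that TSS medians from -0.39 to 0.39 lay within it although the sign turned. No ciliary gene passed an adjusted p of 0.05 in any limma fit, while the count over all protein-coding genes changed. At the TSS it was 0, and 219 with all 8 libraries, 5 after centring on the median and 1 among genes with a mean of at least 1. For gene bodies it was 0, and 38 with that filter, 23 with sex as a replicate block, and 0 to 15 without each SOX9 library, with 15 without the M and 7 without the F library at 1 d.p.i. A lone library was then assumed to vary like the other group. The median gene body difference was -0.085 with the filter, which left 21 of the 40 genes, and -0.063 to -0.0093 without each library. The median TSS level was 3.99 with 500 bp and 2.06 with 2 kb to each side, and 6 genes reached 5 times the library mean, as did 24.4% of all genes. The cause was not tested. With sex as a replicate block the median differences are -0.08 (TSS) and -0.01 (gene body) by construction, since each condition has 1 M and 1 F library. Letters M and F mark different animals, and the M minus F deviations of uninjured and injured libraries correlated at -0.10 (TSS) and -0.26 (gene body) across genes. Crossed pairing, added after seeing the data, called 0 genes in both windows. Also added then, 1 promoter per other coding gene gave SOX letters in 25.2%, AP-1 in 4.51%, RFX in 17.9% and FOX in 8.40%, and paired RFX arms were in 0% of the ciliary promoters as GTTNCC before GGNAAC and in 5.88% in the other order. Depth limits the low TSS windows most, where a few fragments set the value.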
